A study of Mus musculus with 11 samples.

Results

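The macrophage and myeloid genes described here are 38 genes that mark macrophages, monocytes and related white blood cells, taken by symbol from a named list, and all 38 were present among the 13734 genes measured. They were followed through RNA sequencing of isolated mouse glomeruli, the filtering units of the kidney, in 11 libraries. The db/db vehicle group (n = 4) and the db/db puerarin group (n = 3) came from mice with 2 copies of the db mutation of the leptin receptor, which become obese and diabetic. The db/m vehicle group (n = 4) came from littermates with 1 copy, which do not become diabetic. All mice were described as male and on the BKS background, although the strain field of the labels reads C57BL/6J. Dosing began at 10 weeks of age and went on for 6 weeks. Puerarin, an isoflavone glucoside of kudzu root, was given by mouth at 20 mg per kg per day in 5% DMSO, and both vehicle groups received 5% DMSO alone. The db mutation is present in every cell of the animal, so nothing in the design separates an effect on glomeruli from an effect of obesity and high glucose.

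Macrophages engulf particles and immune complexes, digest them in lysosomes and present peptides on class II molecules to T cells. In the kidney they occur as resident cells and as descendants of blood monocytes that enter during injury, and healthy glomeruli hold few of them. Their development depends on the transcription factor PU.1, the product of Spi1, and their survival on the growth factor receptor encoded by Csf1r. Fc receptors bind antibody and signal through the small adaptors encoded by Fcer1g and Tyrobp. In whole glomeruli, more macrophages and more RNA per macrophage cannot be told apart, nor can fewer and less.

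Of the library titles, 5 carried an S number and 6 a tag naming the group, here called name forms. Both occurred in every group, and what they stand for is not given in the labels. Values for single libraries are given below in the order db/m vehicle S184, S185, 2 and 3, then db/db vehicle S152, S153, 1 and 3, then db/db puerarin S144, 2 and 3. Levels are CPM, the counts of a gene, summed over its transcripts, as a share of the library scaled to a common total and for library composition. Of the 38 genes, 14 had several transcripts. Reads shared by transcripts of a gene may count more than once, which may raise its level. Total counts ran from 35369703 to 44244460. The labels do not say whether a library came from 1 mouse or from several, so the spread between libraries may be technical in part. Glomerular markers were abundant in every library: 10 podocyte genes summed to 10900 to 16200 CPM and 10 glomerular endothelial genes to 3720 to 7670 CPM. RNA of tubules was present as well, with Umod, which encodes the most abundant protein of urine, at 472 to 3560 CPM.

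Some libraries stood apart. Xist, which coats the silenced X chromosome of female cells, reached 528 and 819 CPM in the libraries labelled db/db puerarin 2 and 3 and was at 0.519 to 6.47 CPM otherwise. Their level of the Y-linked gene Ddx3y was 3.06 and 0.909 CPM, against 50.3 to 85.2 CPM, so both go against the male label. The library db/db vehicle 1 was the highest of the 11 for 37 of the 38 myeloid genes, whereas it was the highest for 7.84% of all genes. It exceeded the next library more than 2 times for 29 of the 38, against 1.1% of all genes. For 5 members (Trem2, Ms4a7, Cd83, Aif1 and Lst1) no other library reached 100 counts in the main transcript, so they may have entered the deposited table through db/db vehicle 1, which would fix their order. Without such genes, a choice made after seeing the data, it was highest for 32 of 33 members and 7.18% of 13590 genes. It then exceeded the next library more than 2 times for 25 of 33 and for 0.684%. Over the 38 genes the median ratio of db/db vehicle 1 to the next library was 2.76, with a range of 0.928 to 6.26. The db/db vehicle means therefore rest largely on 1 library, and results are given with and without it.

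**Figure D1:**
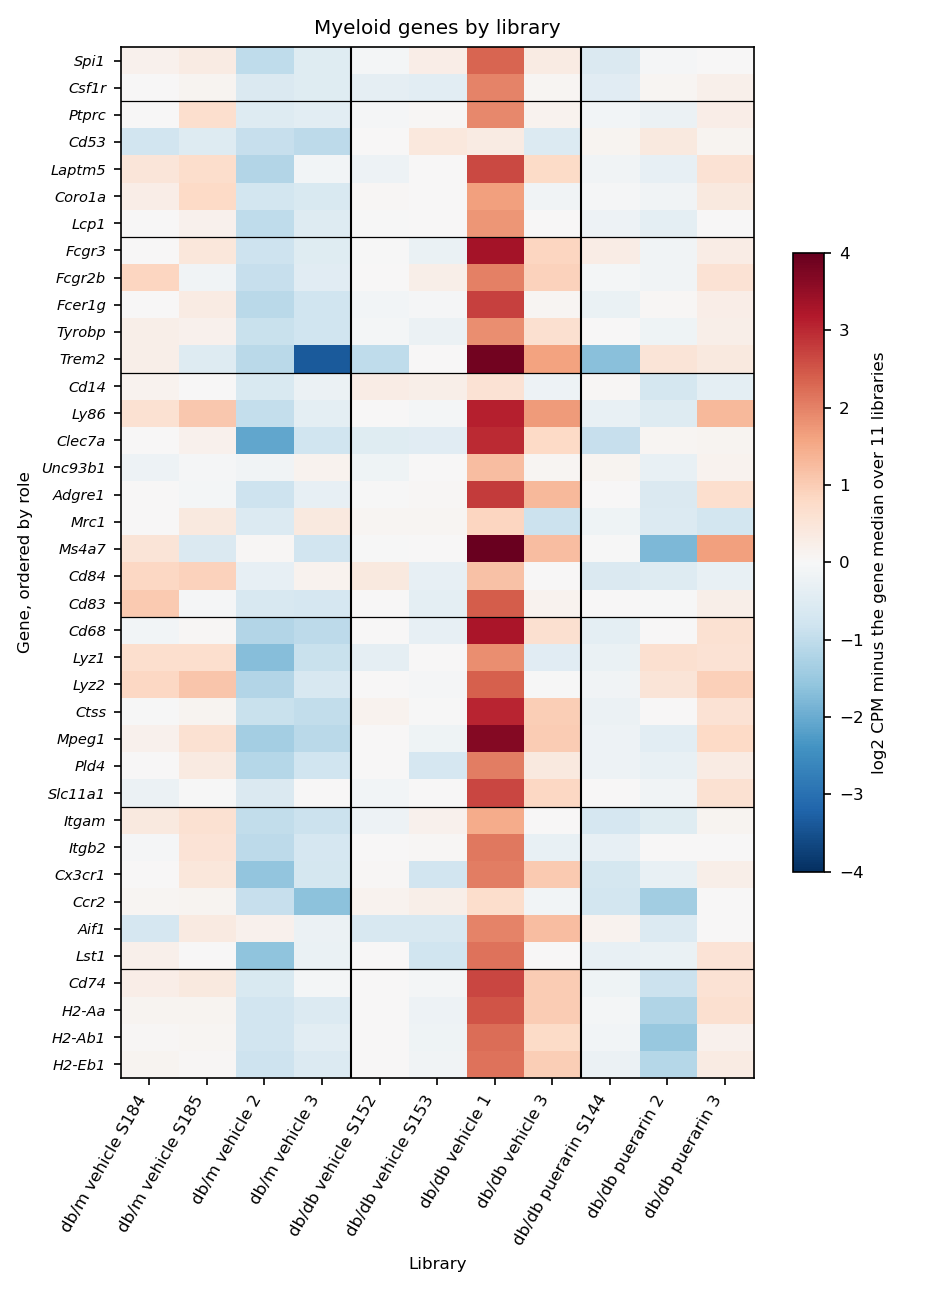
Level of each of the 38 myeloid genes (rows, ordered by role) in each of the 11 libraries (columns, by group), as log2 CPM minus the gene's median over the libraries. The column of db/db vehicle 1 is red for nearly every gene, in shades from pale to dark, and db/m vehicle 2 is the lowest column for 23 of the 38.

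The promoters of 3 members are shown first, because the product of another member, PU.1, binds DNA at motifs built on GAGGAA. The longer motif GAGGAAGT was searched on both strands from 250 bases before to 50 bases after the start of each gene (RefSeq, GRCm38.p6). Of the 38 genes, 27 had an entry. GAGGAAGT was in 3 of these (11.1%), Ctss, Cd53 and Pld4, and in 3.69% of the 27025 genes with such a window. The core GAGGAA, which the longer motif contains, was in 15 of the 27 (55.6%) and in 31.3% of all genes with a window. The stretches below run 5′ to 3′ along the gene from 100 bases before to 30 bases after the start, with GAGGAAGT or its reverse complement ACTTCCTC in capitals. They lie at chr3:95526686-95526815 on the plus strand (Ctss), chr3:106790120-106790249 on the minus strand (Cd53) and chr12:112760555-112760684 on the plus strand (Pld4).
Ctss: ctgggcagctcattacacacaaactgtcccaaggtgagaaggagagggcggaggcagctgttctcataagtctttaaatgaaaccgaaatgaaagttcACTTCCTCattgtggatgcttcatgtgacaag
Cd53: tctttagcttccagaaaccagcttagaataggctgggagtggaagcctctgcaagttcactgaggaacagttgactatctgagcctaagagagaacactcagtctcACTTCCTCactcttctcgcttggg
Pld4: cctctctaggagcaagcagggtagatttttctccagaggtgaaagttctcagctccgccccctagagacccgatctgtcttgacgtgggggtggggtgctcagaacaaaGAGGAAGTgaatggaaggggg
The motif began at base -2 of Ctss, base 7 of Cd53 and base 10 of Pld4, counted from the start with no base 0. A match of letters is a description and not a measured binding site. The expression of these 3 genes differed, as given below: Ctss and Pld4 were highest in db/db vehicle 1, and Cd53 was not.

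Per length of transcript, so that genes can be compared, Lyz2 was the most abundant of the 38 in db/m glomeruli, at 84.2 ± 56 CPM per kb (SD, n = 4). Cd74 followed at 36.6 ± 9.73, H2-Ab1 at 34 ± 8.49 and H2-Aa at 26.7 ± 7.68 CPM per kb (SD, n = 4 each). These 4 ranges over the db/m libraries overlapped. Trem2 was the least abundant, at 0.248 ± 0.189 CPM per kb, and Ms4a7 was at 0.334 ± 0.157 CPM per kb (SD, n = 4 each). For comparison, Kdr, the endothelial receptor for vascular growth factor, was at 212 CPM per kb in the same group. Counts of the 5 members that reached 100 in db/db vehicle 1 alone were low elsewhere, at most 34 for Trem2 and 96 for Cd83.

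The lineage genes came first in the order of roles. Spi1 was at 4.77, 5.38, 2.12 and 3.06 CPM in db/m vehicle, at 4.03, 5.16, 21.5 and 5.38 CPM in db/db vehicle, and at 2.87, 4.11 and 4.26 CPM with puerarin. Csf1r was at 17.8, 19.0, 11.8 and 12.7 CPM, at 14.0, 13.2, 69.9 and 18.9 CPM, and at 13.1, 18.9 and 20.5 CPM. For both, db/db vehicle 1 lay far above the rest, at 4 and 3.4 times the next library, and the other 10 libraries of the 3 groups overlapped.

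The pan-leukocyte genes are shared by all white blood cells. Ptprc, which encodes the surface phosphatase CD45, was at 41.0, 65.3, 28.5 and 30.5 CPM in db/m vehicle, 39.8, 42.3, 154 and 45.3 CPM in db/db vehicle, and 37.6, 34.5 and 49.7 CPM with puerarin. Laptm5, a lysosomal membrane protein of blood cells, reached 42.4 CPM in db/db vehicle 1 and 3.01 to 11.4 CPM elsewhere. The actin-binding genes Coro1a and Lcp1 reached 75.5 and 133 CPM there, against 14.6 to 41.6 and 19.3 to 43.9 CPM. The same library was thus highest for 4 of the 5 genes of this group, and Cd53, described further on, was the exception.

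Among the Fc receptors and adaptors, Fcgr3, an activating receptor for immunoglobulin G, was at 3.22, 4.41, 1.83 and 2.31 CPM in db/m vehicle. It was at 3.19, 2.67, 32.3 and 5.81 CPM in db/db vehicle and at 3.95, 2.95 and 3.92 CPM with puerarin. Db/db vehicle 1 was 5.55 times the next library, db/db vehicle 3. Its adaptor Fcer1g was at 19 CPM in db/db vehicle 1 and at 1.36 to 3.57 CPM elsewhere. Tyrobp, the adaptor of Trem2, was at 20.1 CPM there and at 2.96 to 8.48 CPM elsewhere, and the inhibitory receptor Fcgr2b at 53.3 against 6.92 to 24.6 CPM. Trem2, a lipid-sensing receptor, was at 7.55 CPM in db/db vehicle 1 and 1.58 CPM in db/db vehicle 3. The other 9 libraries had 0 to 0.736 CPM of Trem2, and the 0, in db/m vehicle 3, was a blank cell in the deposited table.

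Among the phagosome and lysosome genes, Mpeg1, which encodes the pore-forming protein perforin-2, was at 18.7, 25.1, 6.45 and 7.76 CPM in db/m vehicle, 16.5, 14.5, 210 and 33.5 CPM in db/db vehicle, and 14.3, 12.4 and 28.5 CPM with puerarin. Ctss, the protease cathepsin S that trims the class II chaperone, was at 27.9, 30.3, 15.3 and 14.2 CPM, at 31.4, 27.9, 234 and 55.9 CPM, and at 24.0, 28.3 and 41.9 CPM. Cd68, a lysosomal glycoprotein used as a macrophage stain, was at 3.55, 3.98, 1.7 and 1.87 CPM, at 3.85, 3.06, 36.7 and 6.06 CPM, and at 2.96, 3.91 and 5.84 CPM. For all 3 genes db/db vehicle 1 came first and db/db vehicle 3 next, while db/db vehicle S152 and S153 lay within the range of db/m, except Ctss in S152, just above it. Pld4, an endolysosomal nuclease, and Slc11a1, a metal transporter of phagosomes, showed the same order of these first 2 libraries, with 17.4 and 23.6 CPM in db/db vehicle 1. The lysozyme genes Lyz1 (chr10:117287795-117292868) and Lyz2 (chr10:117277541-117282272) are close copies, so reads may be shared between them and their separate levels are uncertain. Lyz2 was at 231 CPM in db/db vehicle 1, and the next library was a db/m one, S185, at 96.1 CPM.

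**Figure D2:**
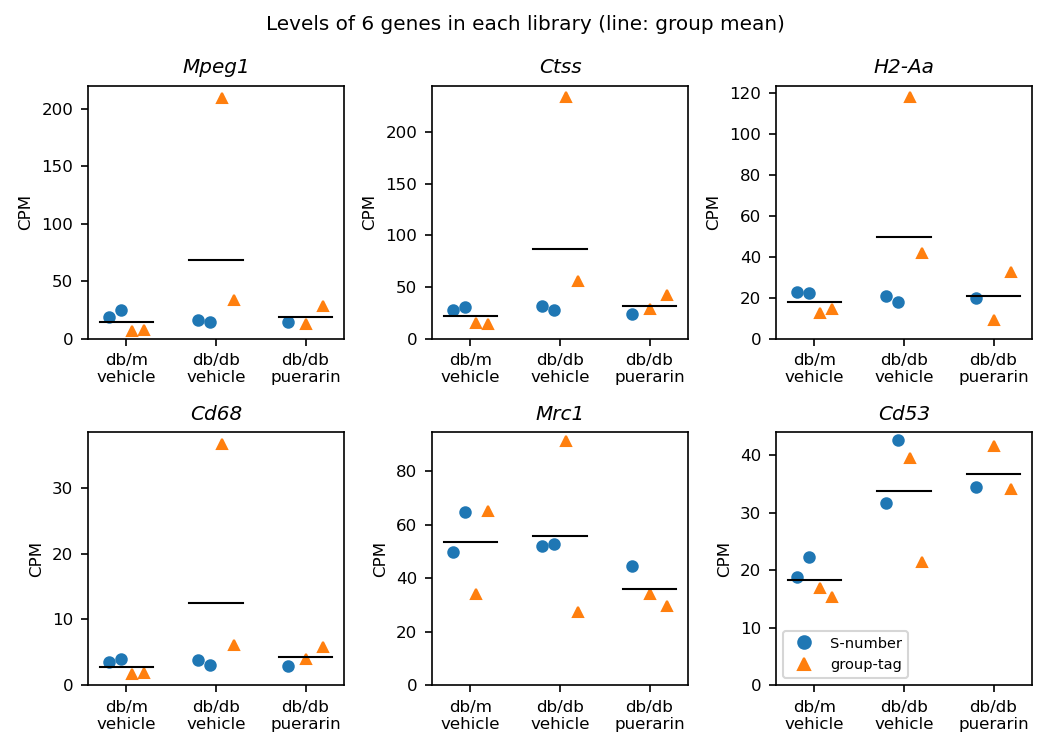
CPM of Mpeg1, Ctss, H2-Aa, Cd68, Mrc1 and Cd53 in each library, by group, with circles for S-number and triangles for group-tag titles and a line at the group mean. In the first 4 panels 1 db/db vehicle triangle lies far above all other points, whereas for Cd53 the db/m points sit at 15.4 to 22.3 CPM and the puerarin points at 34.2 to 41.6 CPM.

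The genes of pattern recognition and the cell surface varied more among themselves. Adgre1, which encodes the macrophage marker F4/80, was at 3.1, 2.89, 1.73 and 2.44 CPM in db/m vehicle, 3.04, 3.16, 21.6 and 7.63 CPM in db/db vehicle, and 3.08, 2.07 and 4.86 CPM with puerarin. Clec7a, the beta-glucan receptor Dectin-1, reached 63.3 CPM in db/db vehicle 1 against 1.88 to 13.7 CPM, and Ly86, a partner of a Toll-like receptor homologue, 10.8 against 0.642 to 4.05 CPM. Ms4a7 and Cd83 were at 13.6 and 12.3 CPM there, against 0.255 to 2.73 and 1.44 to 4.77 CPM. The gap was smallest for 4 genes of this group, whose ratio to the next library was 1.23 for Cd14, 1.41 for Mrc1, 1.19 for Cd84 and 2.1 for Unc93b1. Mrc1, the mannose receptor, was at 49.8, 64.7, 34 and 65 CPM in db/m vehicle, 52.2, 52.9, 91.3 and 27.4 CPM in db/db vehicle, and 44.4, 33.9 and 29.7 CPM with puerarin. Its lowest library was db/db vehicle 3, which was the highest of the other 10 libraries for 20 of the 38 genes. Cd14, the co-receptor for bacterial lipopolysaccharide, ran only from 5.72 to 14 CPM, and Unc93b1, which carries Toll-like receptors to endosomes, from 35.9 to 49.2 CPM outside db/db vehicle 1.

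The genes of adhesion and migration include the integrin pair Itgam and Itgb2, at 30.4 and 43.9 CPM in db/db vehicle 1. Elsewhere they were at 5.48 to 16.6 and 4.89 to 14.9 CPM, with db/m vehicle S185 next. Cx3cr1, the receptor for fractalkine, was at 2.74, 3.77, 0.914 and 1.67 CPM in db/m vehicle, 2.81, 1.61, 11.4 and 5.71 CPM in db/db vehicle, and 1.7, 2.21 and 3.22 CPM with puerarin. Ccr2, the receptor that brings monocytes out of the bone marrow, was at 7.26 CPM in db/db vehicle 1, 1.39 times the next library, and at 1.42 to 5.24 CPM elsewhere. Aif1, a calcium-binding protein of macrophages, was at 3.83 CPM in db/db vehicle 1 and 0.609 to 2.26 CPM elsewhere, and Lst1 at 5.04 against 0.37 to 1.64 CPM.

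The class II genes H2-Aa, H2-Ab1 and H2-Eb1 lie side by side on chromosome 17 (chr17:34263227-34316674, mm10), and Cd74 encodes their chaperone, the invariant chain. Cd74 was at 74.7, 80.8, 41.2 and 58.5 CPM in db/m vehicle, 62.3, 58.8, 399 and 127 CPM in db/db vehicle, and 55.2, 34.1 and 93.2 CPM with puerarin. H2-Aa was at 22.5, 22.3, 12.3 and 14.2 CPM, at 20.8, 17.9, 118 and 42 CPM, and at 19.9, 9.12 and 32.7 CPM. Db/db vehicle 1 and 3 were the highest libraries for all 4 class II genes, and db/db puerarin 2 was the lowest for all 4. On the log2 scale the mean class II level of db/db puerarin 2 was -1.31 relative to the 11-library mean, against -0.44 for all 38 myeloid genes in that library. Ciita, the master regulator of class II transcription, was at 34.4 CPM in db/db vehicle 1, 6.32 CPM in db/db puerarin 2 and 6.32 to 13.2 CPM in the other 9. It was 1 of 8 measured class II accessory genes, of which 4 were highest in db/db vehicle 1. On average these 8 stood at 0.63 in db/db vehicle 1 but at -0.14 in db/db puerarin 2 (log2, relative to the 11-library mean), and Rfxank, at 30.1 CPM in db/db puerarin 2 and 23.9 to 32.4 CPM over all libraries, did not share the order of Ciita.

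Vehicle-treated db/db and db/m libraries were compared to ask what the diabetic genotype changed. None of the 38 genes passed the test, and the means of all but Cd84 were higher in db/db. Mpeg1 was at 68.6 ± 94.5 CPM in db/db and 14.5 ± 8.93 CPM in db/m (SD, n = 4 each), Ctss at 87.4 ± 98.8 against 21.9 ± 8.37 CPM, and Cd68 at 12.4 ± 16.2 against 2.78 ± 1.16 CPM. The SD within db/db exceeded the difference between the groups for all 3. In edgeR's quasi-likelihood test with Benjamini-Hochberg adjustment over all genes, 0 of the 38 passed an adjusted p of 0.05, against 6 of 13734 genes (0.0437%). At an unadjusted p under 0.05, 4 of the 38 passed (Cd53, Adgre1, Ctss and Slc11a1), against 10.3% of all genes. All 4 were higher in db/db, as were 5.5% of all genes at that p. None of the 38 had groups that did not overlap with db/db higher (2.48% of all genes). With DESeq2 in place of edgeR, Cd53 alone passed, with 2.11% of all genes.

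Fold changes pointed to db/db for 37 of the 38 genes, with a median of 0.95 on the log2 scale, while the median of all genes was 0.02. Leaving out db/db vehicle 1 lowered the median to 0.36, with 32 of 38 above 0. The 2 name forms differed. Within the S-number libraries the median was -0.34 and 7 of 38 genes were higher in db/db. Within the group-tag libraries, which include db/db vehicle 1, it was 2.36 and all 38 were higher. The 38 include the 5 members that may have entered the deposited table through db/db vehicle 1, whose direction in these libraries may be fixed by it. The log2 fold change of Mpeg1 was 1.83 (SE 0.99, 95% interval -0.37 to 4.04, edgeR adjusted p = 0.585). It was -0.49 among S-number and 4.1 among group-tag libraries, and 0.62 without db/db vehicle 1. For Csf1r it was 0.71 (SE 0.49, edgeR adjusted p = 0.666), -0.44 and 1.86 by form, and 0.01 without db/db vehicle 1. For Adgre1 it was 1.53 (SE 0.59, edgeR adjusted p = 0.406), 0.05 and 2.81 by form, and 0.84 without that library. Cd84 was the only member below 0, at -0.04 (SE 0.37, edgeR adjusted p = 0.983).

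**Figure D3:**
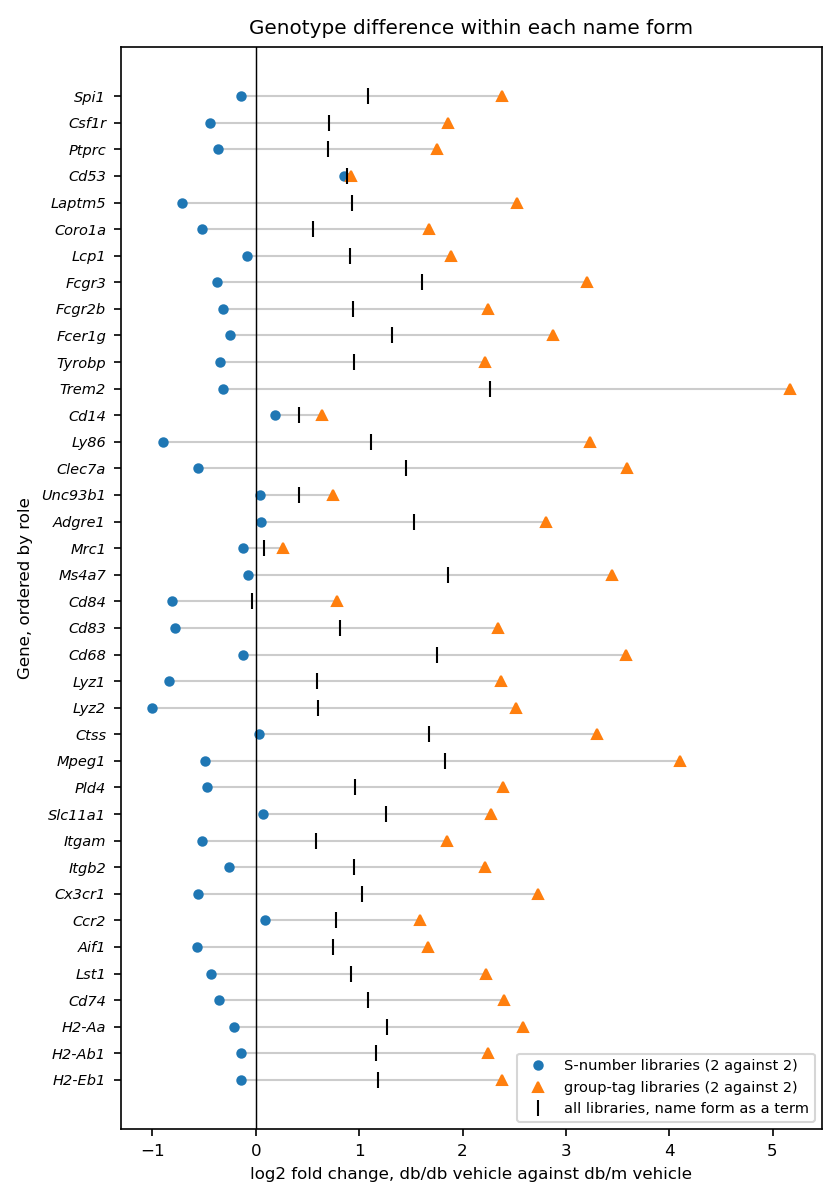
Log2 fold change of db/db vehicle against db/m vehicle for each of the 38 genes, within the S-number libraries (circles, 2 against 2), within the group-tag libraries (triangles, 2 against 2) and over all libraries with name form as a term (ticks). The circles lie mostly left of 0 (31 of 38) and the triangles all lie right of it, while both marks of Cd53 fall near the tick at 0.88.

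The difference between the name forms in the genotype effect was tested directly. Its median over the 38 genes was 2.62 on the log2 scale, and it was above 0 for all 38. In edgeR's test 0 of the 38 passed an adjusted p of 0.05, against 3 of 13734 genes (0.0218%). At an unadjusted p under 0.05, 34 of the 38 passed, against 3.33% of all genes. The 38 genes were measured in the same libraries and vary together, so these are not 34 separate observations. The 4 that did not pass were Cd53, Cd14, Unc93b1 and Mrc1. The 34 include Trem2, Ms4a7, Cd83, Aif1 and Lst1, which may have entered the deposited table through db/db vehicle 1. That entry may have fixed their difference between the forms. Trem2 is also among the DESeq2 calls that follow, and Trem2 and Cd83 are among the edgeR calls without db/db vehicle 3. DESeq2 called 16 of the 38 (0.371% of all genes), among them Clec7a, whose log2 difference was 4.15 (SE 0.91) in edgeR, with adjusted p = 0.848 in edgeR and 0.000478 in DESeq2. Without db/db vehicle 3, edgeR called 24 of the 38 (0.75% of all genes). That fit leaves db/db vehicle 1 as the lone group-tag library of its group, which is assumed to vary like the other groups, so the calls rest on it. Without db/db vehicle 1, where db/db vehicle 3 is alone in the same way, edgeR called 0 (0.0291% of all genes), the median was 1.59 and 34 of 38 were above 0.

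The group-tag db/m libraries were also the low end of the data. Db/m vehicle 2 was the lowest of the 11 libraries for 23 of the 38 genes and db/m vehicle 3 for 5. The mean level of the 38 genes, on the log2 scale relative to the 11-library mean, was -0.98 and -0.73 in db/m vehicle 2 and 3, and 0.05 and 0.15 in db/m vehicle S184 and S185. It was -0.18, -0.22, 2.1 and 0.36 in db/db vehicle S152, S153, 1 and 3. As a main effect over all groups, name form changed none of the 38 in edgeR's test at an adjusted p of 0.05, against 6.97% of all genes (5.65% higher in the group-tag libraries). Of the 38, 0 passed at an unadjusted p under 0.05 (25.3% of all genes) or in DESeq2 (13.7%). The 2 forms overlapped for all 38, whereas 5.13% of all genes did not overlap with the group-tag libraries higher. Without db/db vehicle 1, Cd14 passed, lower in the group-tag libraries, with a log2 difference of -0.49 (edgeR adjusted p = 0.0234), as did 13% of all genes in that fit. With all libraries its adjusted p was 0.24, and it reached 0.578 over the settings.

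Puerarin and vehicle were compared within db/db to ask what the compound changed in diabetic animals. None of the 38 genes passed the test, and fold changes were below 0 for all but Cd53. Spi1 had a mean of 3.75 ± 0.76 CPM under puerarin (SD, n = 3), against 9.02 ± 8.35 CPM under vehicle (SD, n = 4), and Cd74 of 60.8 ± 29.9 against 162 ± 161 CPM. In edgeR's test 0 of the 38 passed an adjusted p of 0.05, as did 0 of 13734 genes (0%). At an unadjusted p under 0.05, 2 of the 38 passed (Cd14 and H2-Eb1), against 4.21% of all genes. Both were lower with puerarin, and none of the 38 was higher at that p (2.02% of all genes). DESeq2 called 0 of the 38, with 0.109% of all genes. The groups overlapped for all 38, whereas 1.72% of all genes were lower and 1.51% higher with no overlap.

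The median log2 fold change was -0.93, and 37 of 38 genes were below 0. Without db/db vehicle 1 it was -0.11, with 11 of 38 above 0. Within the S-number libraries, with 1 puerarin library against 2, the median was -0.13, and within the group-tag libraries -1.61. For Spi1 the log2 fold change was -1.27 (SE 0.58, edgeR adjusted p = 0.967), and -0.3 without db/db vehicle 1. For Mpeg1 it was -1.79 (SE 0.94, edgeR adjusted p = 0.967), and -0.19 without that library. H2-Eb1 was at -1.26 (SE 0.56, edgeR adjusted p = 0.967), and at -0.6 without it, and all 4 class II genes were below 0 in both fits. Lyz1 turned from -0.26 to 0.96 and Lyz2 from -0.54 to 0.78. Without the 2 puerarin libraries that go against the male label, which leaves 1 puerarin library, the median was -0.93 and 0 of the 38 passed. This comparison shares its vehicle libraries with the comparison of genotypes, so a high db/db vehicle 1 moves both, in opposite directions.

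Puerarin-treated db/db mice were also set against db/m mice. The myeloid genes lay close to the db/m level, with a median log2 fold change of 0.03 and 21 of 38 above 0, and a median of 0.08 without the 2 puerarin libraries that go against the male label. Within the S-number libraries the median was -0.46, and within the group-tag libraries 0.77. In edgeR's test 0 of the 38 passed an adjusted p of 0.05, against 25 of 13734 genes (0.182%), and 1, Cd53, passed at an unadjusted p under 0.05 (10.3% of all genes, 5.37% higher in db/db). Intervals were wide: for Mpeg1 the value was 0.04 (SE 0.97) with a 95% interval of -2.13 to 2.2. Cd84 had the lowest value, -0.92 (SE 0.42, edgeR adjusted p = 0.489), with means of 2.31 ± 0.236 CPM under puerarin (SD, n = 3) against 4.44 ± 1.7 CPM among db/m libraries (SD, n = 4).

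Cd53 departed from the other 37 genes. It encodes a tetraspanin, a membrane protein that organises receptors on white blood cells, and lies at chr3:106758861-106790149. It was at 18.8, 22.3, 16.9 and 15.4 CPM in db/m vehicle, 31.7, 42.6, 39.6 and 21.5 CPM in db/db vehicle, and 34.4, 41.6 and 34.2 CPM with puerarin. All 3 puerarin libraries lay above all 4 db/m libraries, which held for 3.73% of all genes. Of the db/db vehicle libraries only db/db vehicle 3, at 21.5 CPM, fell inside the db/m range. Its highest library was db/db vehicle S153, and db/db vehicle 1 was 0.928 times that level.

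Between the vehicle groups the log2 fold change of Cd53, db/db over db/m, was 0.88 (SE 0.19, 95% interval 0.46 to 1.31, edgeR adjusted p = 0.138). It was 0.85 in S-number libraries, 0.92 in group-tag libraries, and 0.73 without db/db vehicle 1. The difference between the name forms was 0.06 (SE 0.39, edgeR adjusted p = 1). With puerarin, db/db over db/m was 1.05 (SE 0.21, edgeR adjusted p = 0.0936), 0.74 among S-number and 1.23 among group-tag libraries. That comparison passed in DESeq2 (adjusted p = 0.000559, with 2.16% of all genes). It passed in edgeR without db/db vehicle 1 (adjusted p = 0.0409, with 0.539% of all genes) or db/db vehicle 3 (adjusted p = 0.0448, with 0.291% of all genes), and its adjusted p reached 0.754 over the other settings. Without the 2 puerarin libraries that go against the male label it was 0.78. Puerarin against vehicle gave 0.16 (SE 0.21, edgeR adjusted p = 0.967). The comparisons share db/m and db/db libraries, so they are not separate evidence. Cd53 was named because its values departed from the rest.

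Other macrophage genes, outside the 38, were read from lists of related genes. Of 12 resident macrophage and complement genes measured, none passed edgeR's test in any comparison between groups, and 7 were highest in db/db vehicle 1. At an unadjusted p under 0.05, 8 of the 12 passed in the genotype comparison (10.3% of all genes). C1qb, a chain of the complement starter C1q that macrophages secrete, was at 1.83, 1.27, 1.01 and 1.34 CPM in db/m vehicle, 6.13, 3.63, 116 and 25.2 CPM in db/db vehicle, and 4.04, 2.29 and 15.6 CPM with puerarin. Every db/db library of either treatment lay above every db/m library for C1qb, and the same held for C1qa and C1qc, which were named after their values were seen. Of all genes, 2.48% had every db/db vehicle library above db/m, and 3.73% every puerarin library. C1qa, C1qb and C1qc encode chains of C1q and varied together, so they are not separate observations. In db/m they reached at most 2.24, 1.83 and 1.74 CPM, so they may have entered the deposited table through db/db libraries alone. That entry would favour a higher level in db/db, so the shares of all genes are no fair comparison for them. For C1qb the log2 fold change of db/db vehicle against db/m was 3.96 (SE 1.03, adjusted p = 0.205 in edgeR and 0.00398 in DESeq2). It was 1.66 among S-number and 5.9 among group-tag libraries, and 2.87 without db/db vehicle 1. For C1qa and C1qc the values among S-number libraries were 1.26 and 1.46, whereas 31 of the 38 genes were below 0 there.

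Of 18 genes of lipid-laden macrophages, 12 were highest in db/db vehicle 1. Mmp12, macrophage elastase, was at 1.37, 1.27, 1.23 and 0.846 CPM in db/m vehicle, 2.3, 2.15, 32 and 14.2 CPM in db/db vehicle, and 2.64, 2.52 and 5.04 CPM with puerarin. For vehicle-treated db/db against db/m its log2 fold change was 2.83 (SE 0.74, adjusted p = 0.207 in edgeR and 0.000661 in DESeq2). With at most 1.37 CPM in db/m, Mmp12 may have entered the deposited table through db/db libraries alone, which would favour this direction. None of the 18 passed that comparison in edgeR. In puerarin-treated db/db against db/m, Fabp4, a fatty acid binding protein also made by capillary endothelium, rose from 43.7 ± 8.43 CPM (SD, n = 4) to 105 ± 23.3 CPM (SD, n = 3). Its log2 fold change was 1.26 (SE 0.2, edgeR adjusted p = 0.0455), and its adjusted p ranged from 5.79e-06 to 0.718 over the other settings. Sele, an endothelial adhesion molecule for white blood cells, rose in the same comparison from 4.76 ± 1.32 to 12.3 ± 3.63 CPM, by 1.51 on the log2 scale (SE 0.24, edgeR adjusted p = 0.0455). Its adjusted p ranged from 1.68e-06 to 0.566. They were 1 of 18 and 1 of 13 measured genes of their lists, and no gene passed this comparison without db/db puerarin 2 and 3. In vehicle-treated db/db, Fabp4 was at 66.6 ± 11.1 CPM and Sele at 9.34 ± 2.77 CPM (SD, n = 4 each). These libraries too lay above every db/m library for both genes (2.48% of all genes), and they overlapped with the puerarin libraries. Of 22 signalling genes of macrophages, 18 were highest in db/db vehicle 1 and none passed in any comparison between groups. Csf1, the growth factor that binds the Csf1r product, did not share the pattern, at 182 CPM in db/db vehicle 1 and 128 to 252 CPM elsewhere.

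Markers of other cell types were read in the same libraries. Of 13 monocyte genes, 7 were highest in db/db vehicle 1, where the list's mean log2 level was 0.86 against -0.95 to 0.3 elsewhere. Among them, Fn1, which encodes fibronectin and is also made by other cells, was at 388 CPM there and 69.9 to 183 CPM elsewhere. Treml4 was at 45.1 CPM against 1.24 to 11.6 CPM. Ly6c2 and Plac8 did not share this, at 1.12 and 9.09 CPM in db/db vehicle 1 and 0.667 to 2.94 and 9.67 to 24.2 CPM elsewhere. The 5 measured dendritic cell genes summed to 162 CPM in db/db vehicle 1 and 88 to 149 CPM elsewhere, and the 10 mesangial genes to 2680 against 1530 to 2340 CPM. The summed level of the 5 measured lymphocyte genes was 16.5 CPM in db/db vehicle 1 and 8.8 to 20.7 CPM elsewhere. The other 11 of 16 listed, Cd3e, Cd4 and Cd8a among them, were not among the measured genes, so their level is unknown. The 6 measured neutrophil genes summed to 53.4 CPM in db/db vehicle 1 and to 14.3 to 37.8 CPM elsewhere. Of the 12 listed, 6 were not among the measured genes. Every measured gene of these lists had counts in all libraries. The 12 tubule genes summed to 4540 CPM in db/db vehicle 1 and 10900 CPM in db/db vehicle 3, with 1710 to 8480 CPM in the other 9. The 10 podocyte genes summed to 13300 CPM in db/db vehicle 1 and 10900 to 16200 CPM elsewhere. The part of these other cell types in the myeloid values was not tested.

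**Figure D4:**
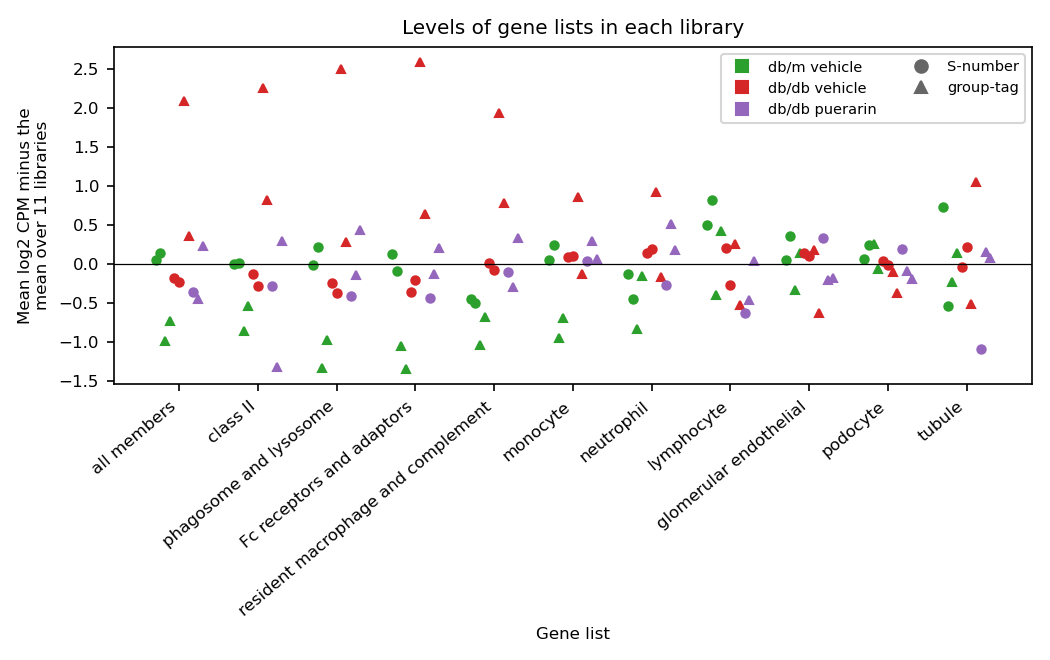
Mean log2 CPM of each gene list, relative to its mean over the 11 libraries, in each library, coloured by group with circles for S-number and triangles for group-tag titles. The triangle of db/db vehicle 1 stands at 2.1 for all 38 genes, 2.26 for class II and 1.94 for resident macrophage genes, and at 0.26 for lymphocyte and -0.1 for podocyte genes.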

How the data were processed

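RNA from isolated glomeruli was sequenced in 11 libraries. BWA, limma and the build mm10 are named, without versions, per the submitters' processing notes; RNA with an integrity value above 7.5 was used, per the labels' protocols, which list 2 sequencing sites but not which libraries each handled. The counting method and its strand setting are not given in the sources used here. Deposited counts are whole reads per RefSeq transcript (22320 transcripts in 15 columns, of which 4 fit no sample label and stayed out). The deposited log2 values are the log2 of those counts plus a constant per library and were not tested. Blank cells (13) were treated as 0, and 50 symbols turned into dates were set right from their transcript identifiers.

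Summing by symbol gave 13734 genes. Of the 38 genes, 14 had several transcripts, and in 11 the next transcript had a total within 10% of the highest, so some reads may count more than once. Deposited start positions count from 0 and are printed from 1. Replicate pairs all differed by more than sampling noise. Total counts were 35369703 to 44244460. Reads carry no molecular identifiers, so depth covers counting error only.

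edgeR 4.0.16 in R 4.3.3 (TMM factors, glmQLFit, glmQLFTest, two-sided, Benjamini-Hochberg over all genes, 0.05) was fitted to the 11 libraries, with terms for group and for name form (7 residual degrees of freedom, prior 3.14), keeping genes with a count of at least 1 in 3 libraries. The difference between name forms and the values within them came from a fit of group by form. The scripts were tested on simulated data. Alternatives were DESeq2 1.42.0, library totals, other filters, the highest transcript only, other terms and sets of libraries, a replicate block, and each library left out. The members, lists and tests were chosen with earlier results of these data known. Any of the 38 genes could be named. Of each related list, the rule named the 3 most abundant genes, the genes with the highest and lowest genotype fold change and any that passed, and also the 10 genes with the largest ratio of db/db vehicle 1 to the next library.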

Additional observations from a re-analysis of the deposited data

Results flagged for a closer look

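Within the 4 db/db vehicle libraries, the level of 6 of the 38 genes in db/db vehicle 1 was far from the other 3 on the log2 CPM scale by Dixon's criterion. Lyz2 was at 7.85 (231 CPM, against 43.3 to 44.3 CPM), Lcp1 at 7.06 (133 CPM, against 38.2 to 39.6 CPM) and Ptprc at 7.26 (154 CPM, against 39.8 to 45.3 CPM). Fcer1g was at 4.25 (19 CPM, against 2.68 to 3.02 CPM), Coro1a at 6.24 (75.5 CPM, against 22 to 25 CPM) and Itgb2 at 5.46 (43.9 CPM, against 8.29 to 10.5 CPM). Chance picks about 1 in 20 groups by this criterion, and 76 groups were examined. On the CPM scale, 21 of the 76 met the criterion. For genes such as Mpeg1 and Ctss, db/db vehicle 1 was further from the others in CPM, but db/db vehicle 3 was raised too, which widened the range of the remaining libraries.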

How the results depend on the processing

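For db/db against db/m, 6 genes passed in edgeR, 290 in DESeq2, 1 with no name form term, 2 with only the 2 groups compared, 2 without db/db puerarin 2 and 3, 0 in the group-tag libraries only, and 0 to 82 with each library left out, the last without db/db vehicle 1. Of the 38 genes, DESeq2 called 1 and leaving out a library called 0 to 0. Their median was -0.36 in the S-number libraries only, 2.37 in the group-tag libraries only, and 0.36 to 1.32 with each library left out. For puerarin against vehicle, DESeq2 called 15 genes, the group-tag libraries only 1, and leaving out a library 0 to 5. The median was -0.10 in the S-number libraries only and -1.22 to -0.11 with each library left out. For db/db with puerarin against db/m, 25 genes passed, 297 in DESeq2, 5 with no name form term, 5 with only the 2 groups compared, 0 without db/db puerarin 2 and 3, 2 in the S-number and 1 in the group-tag libraries only, and 0 to 74 with each library left out. Of the 38 genes, DESeq2 called 1 and leaving out a library 0 to 1 (Cd53). The median was -0.28 to 0.25, so its sign turned. For name form, 957 genes passed, 1885 in DESeq2, 81 without db/db puerarin 2 and 3, and 163 to 1791 with each library left out. Of the 38, 0 to 1 passed, and the median was -0.12 to 0.69, below 0 without db/db vehicle 1. For the difference between forms, 3 genes passed, 51 in DESeq2, 1 without db/db puerarin 2 and 3, and 1 to 103 with each library left out. Of the 38, DESeq2 called 16, leaving out a library 0 to 24, and the median was 1.59 to 3.23. The cause was not tested.

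With the number in the group-tag titles as a replicate block, 56, 49 and 1 genes passed for db/db against db/m, puerarin-treated db/db against db/m and the difference between forms. The medians of the 38 genes for db/db against db/m, puerarin against vehicle and the difference between forms were 0.18, 0.00 and 1.29. Same-numbered libraries had residual correlations of -0.11 to 0.06 within group and form, and of -0.23 to 0.26 with group and form as terms. Not every pair was over 0.1 in either. Within group and form, the residuals of the 2 group-tag libraries of a group mirror each other. These few correlations cannot tell whether same-numbered libraries share more than a number.

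The precision is limited mostly by 3 or 4 libraries in a group and by the spread of db/db vehicle 1. Counting limits it as well for genes with few counts, such as the 5 genes with under 100 counts outside that library.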

Other observations

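Outside the 38 genes, the 10 genes with the largest ratio of db/db vehicle 1 to the next library, among genes of at least 5 CPM there, are described with no test. Cd5l and Arg1 were also on the related lists. The first was Fcna, a ficolin of macrophages that starts the lectin pathway of complement, at 27.6 CPM in db/db vehicle 1 and 0.158 to 1.38 CPM elsewhere. Cd5l, a secreted protein of tissue macrophages, was at 30.9 CPM against 0.274 to 1.93 CPM. The potassium channel gene Kcnk13 was at 9.37 against 0.023 to 0.652 CPM, and Arg1, the urea-forming enzyme arginase 1, at 8.7 against 0.272 to 1.31 CPM. The others were Wfdc17 (30.1 CPM), Lair1, an inhibitory collagen receptor (69.4 CPM), C3ar1, the receptor for complement C3a (6.39 CPM), Pira2 (5.47 CPM), Lrrc25 (7.6 CPM) and Gpr65, a proton-sensing receptor (8.77 CPM). Each was 5.33 to 20 times the next library. Those that were low elsewhere, such as Fcna and Cd5l, may have entered the deposited table through db/db vehicle 1. That entry would fix their order, as for 5 of the 38 genes, so their ratios are no separate observation about that library.

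The neutrophil genes S100a8 and S100a9 were at 8.25 and 19.3 CPM in db/db vehicle 1, and at 6.66 and 15.6 CPM in db/db puerarin 2, the next library for both. Of the 6 measured neutrophil genes, 4 were highest in db/db vehicle 1. Ltf and Camp were not, at 4.82 and 1.69 CPM there and up to 5.4 and 3.04 CPM elsewhere.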
